A study of Mus musculus with 2 samples.

Results

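This account covers 10 genes of oxygen transport and heme synthesis in the newborn mouse kidney, out of 43346 Ensembl genes in the deposited tables. They are 7 hemoglobin genes and 3 enzymes of heme synthesis, chosen by name and found in both libraries by gene identifier. The adult alpha globins are Hba-a2 and Hba-a1, the adult beta globins are Hbb-bs and Hbb-bt, and the embryonic globins are Hba-x, Hbb-y and Hbb-bh1. The enzymes are Alas1 and Alas2, which carry out the first and rate-limiting step of heme synthesis, and Fech, which carries out the last.

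The tissue was both kidneys of each of 2 newborn B6NCrl pups, taken on postnatal day 0, and total RNA-seq used 10 ng of RNA above 200 nt in size, with spike-ins added. Both pups came from 1 mother and form a single group, with no treatment and no control. The pups' sex was not collected, per the labels, and whether blood was washed out of the kidneys is not given in the sources used here. The libraries held 41584961 expected counts (model estimates of the number of reads per gene) in pup 1 and 48823952 in pup 2. With 1 group of n = 2 littermates no test was made. Levels are TPM as deposited (a relative abundance corrected for length, scaled to a total of 1000000), given per pup or as mean ± SD over the 2 pups, and a gene was called detected at 1 TPM or more in both.

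Adult hemoglobin is built of a pair of alpha-type and a pair of beta-type chains, each holding 1 heme group with iron at its centre. In the mouse the alpha-type genes form a cluster on chromosome 11 and the beta-type genes one on chromosome 7, with the embryonic genes used in the first red cells of the yolk sac and the adult genes used in the fetal liver and later in bone marrow. Heme is also needed outside red cells, for cytochromes and other enzymes. Alas1 is the form of the first enzyme found in most tissues and Alas2 the form of red cell precursors.

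The adult globins of each type are near copies, which bears on the values given for single genes. Over the coding sequence, 425 of 426 bases of Hba-a1 and Hba-a2 were identical, and so were 440 of 441 bases of Hbb-bs and Hbb-bt. The stretches of 60 coding bases that hold these single differences are printed on the coding strand, with the differing base in capitals (GRCm38, GENCODE M21 transcripts). Counting from 1 at the A of the start codon, the differences are C381T between Hba-a1 and Hba-a2 and C417T between Hbb-bs and Hbb-bt.
Hba-a1, chr11:32284313-32284372, plus strand: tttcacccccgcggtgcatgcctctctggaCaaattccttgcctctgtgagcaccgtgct
Hba-a2, chr11:32297130-32297189, plus strand: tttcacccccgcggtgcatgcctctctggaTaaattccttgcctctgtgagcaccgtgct
Hbb-bs, chr7:103826668-103826727, minus strand: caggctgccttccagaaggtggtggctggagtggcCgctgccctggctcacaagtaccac
Hbb-bt, chr7:103812659-103812718, minus strand: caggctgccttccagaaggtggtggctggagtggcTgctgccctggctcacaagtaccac
Of the 100-base windows of the first coding transcript, 74.5% in Hba-a2-201 and 56.5% in Hba-a1-201 were found word for word in the other gene, as were 62.6% in Hbb-bs-201 and 54.8% in Hbb-bt-201. In the noncoding transcripts Hba-a1-202 and Hbb-bs-202, which held most of the TPM of their genes, the shares were 75.7% and 78.4%. All these shares are of GENCODE M21 sequences. The authors counted on longer models of Hbb-bs-201 (778 nt against 628 nt) and Hbb-bs-202 (549 nt against 344 nt), whose shares were not computed. Reads from windows found in both genes carry no mark of the gene they came from. The split within a pair thus rests on the model that divided them, and the sum of a pair is the firmer value.

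The embryonic genes are far enough from the adult ones to be counted separately. Hba-x was identical to Hba-a1 at 61.7% of coding bases, and Hbb-y and Hbb-bh1 were identical to Hbb-bs at 74.4% and 73.9%. The matching 60 bases of these genes are shown to set beside the adult copies. Capitals here mark the bases that differ from Hba-a1 for Hba-x and from Hbb-bs for the other 2 genes, 27 in Hba-x, 8 in Hbb-y and 11 in Hbb-bh1.
Hba-x, chr11:32277930-32277989, plus strand: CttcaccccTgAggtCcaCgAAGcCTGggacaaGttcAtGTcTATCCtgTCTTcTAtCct
Hbb-y, chr7:103851877-103851936, minus strand: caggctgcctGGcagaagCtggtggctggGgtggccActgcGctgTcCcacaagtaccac
Hbb-bh1, chr7:103841755-103841814, minus strand: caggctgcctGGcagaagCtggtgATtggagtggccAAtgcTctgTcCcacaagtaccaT
No 100-base window of these 3 genes occurred in the GENCODE M21 transcripts of any other gene.

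The members fell into 3 bands of level, with the embryonic globins far below the enzymes and the enzymes below the adult globins. Of the 10 members, 7 were detected, against 33.9% of all Ensembl genes: the 4 adult globins and the 3 enzymes. The 3 embryonic globins stayed under 1 TPM. Together the 7 globin genes held 0.459% of all TPM in pup 1 and 0.446% in pup 2, or 0.163% and 0.165% of the expected counts.

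**Figure D1:**
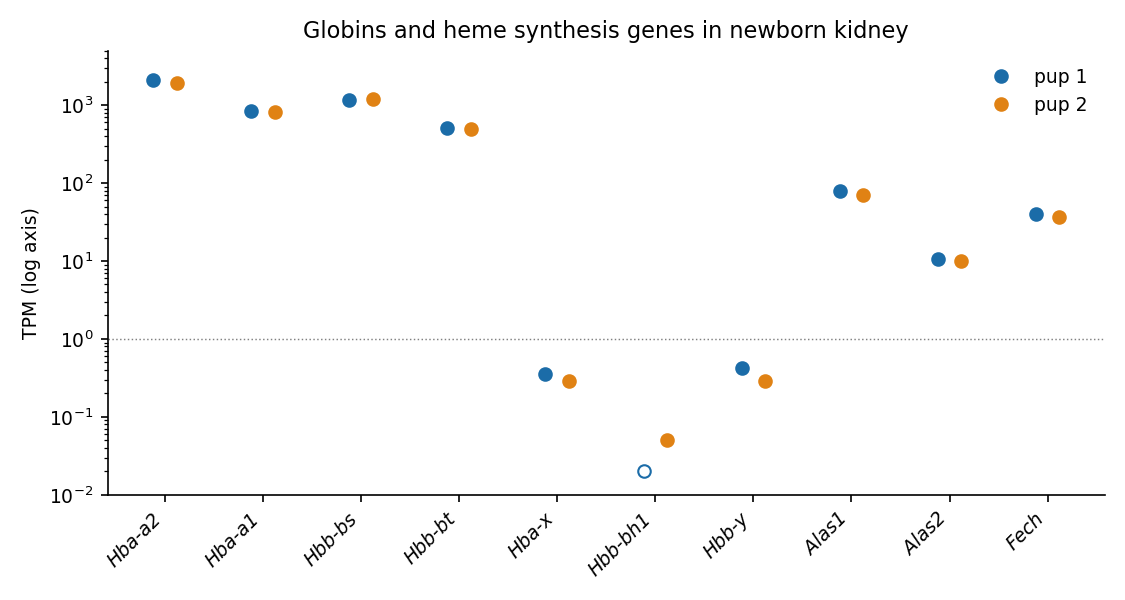
TPM of each member in pup 1 (blue) and pup 2 (orange) on a log axis. The open marker stands for a count of 0 and is drawn at an arbitrary low value, and the dotted line is 1 TPM. The adult globins lie above all other members, the enzymes lie between 10.05 and 78.7 TPM, and the embryonic globins lie below the line.

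Adult alpha globin was the most abundant product of the set. Hba-a2 and Hba-a1 summed to 2913 TPM in pup 1 and 2764 TPM in pup 2 (2838 ± 105, SD, n = 2), from 39408 and 45607 expected counts. Hba-a2 alone (chr11:32296489-32297298) stood at 2081 and 1954 TPM in pups 1 and 2 and ranked 39th among Ensembl genes by mean TPM. Hba-a1 (chr11:32283511-32284465) stood at 831 TPM in pup 1 and 810.04 TPM in pup 2, at rank 171. Hba-a2 was thus above Hba-a1 in both pups, by 2.50-fold and 2.41-fold, and held 71.5% and 70.7% of the pair's TPM. The deposited standard deviation of the count, which the authors' model gives for the division of reads, was the same number for both genes, 151 counts in pup 1 and 134 in pup 2.

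Adult beta globin stood lower than alpha in both pups. Hbb-bs and Hbb-bt summed to 1677 TPM in pup 1 and 1696 TPM in pup 2 (1686 ± 14.0, SD, n = 2), from 28257 and 34750 expected counts. Hbb-bs (chr7:103826534-103828096) was at 1165 and 1204 TPM in pups 1 and 2, at rank 100. Hbb-bt (chr7:103812524-103813996) was at 511 and 492 TPM, at rank 311. Hbb-bs exceeded Hbb-bt by 2.28-fold in pup 1 and 2.45-fold in pup 2. Here too the authors' standard deviation of the count was the same for both genes, 128 and 141 counts in pups 1 and 2.

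The ratio of adult alpha to adult beta TPM was 1.74 in pup 1 and 1.63 in pup 2. On the log2 scale this was 0.75 ± 0.07 (SD, n = 2). For scale, the 95th percentile of the absolute log2 difference of TPM between the pups was 0.50 over 15143 genes. These were all genes with at least 50 expected counts in a pup and TPM above 0 in both. It was 0.26 among those at 100 to 1000 TPM and 0.26 among those above 1000 TPM. This percentile describes single genes between libraries and does not measure the error of a ratio between different genes within a library. The size of the alpha to beta ratio depended on what was counted. From expected counts with no correction for length it was 1.39 and 1.31 in pups 1 and 2, or 0.48 and 0.39 on the log2 scale. Within each pup, protein-coding transcripts alone gave 2.23 and 2.13. Alpha was above beta in both pups under every measure tried.

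Much of the signal of 2 adult globin genes was assigned to transcripts that the annotation lists as retaining an intron, not to the transcripts that encode the protein. The transcript Hba-a1-202, with 494 nt and no annotated coding sequence, held 68.7% of the TPM of Hba-a1 in pup 1 and 75.5% in pup 2. The corresponding transcript of Hba-a2, Hba-a2-202, held 0% and 0.02%, although 75.7% of the 100-base windows of each of these transcripts occur in the other gene. In Hbb-bs the retained-intron transcript Hbb-bs-202 held 53.9% and 56.8%, and the coding transcript Hbb-bs-201 held 45.3% and 41.9%. Hbb-bt has a single transcript. Together, transcripts with a retained intron held 26.1% of adult globin TPM in pup 1 and 29.0% in pup 2.

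How the copies compare changed with this split. From coding transcripts alone, Hba-a2 exceeded Hba-a1 by 8.01-fold in pup 1 and 9.84-fold in pup 2, with 2081 and 1954 TPM for Hba-a2-201 against 260 and 199 TPM for Hba-a1-201. In the beta pair the coding transcripts were close to equal, with 537 and 521 TPM for Hbb-bs against 511 and 492 TPM for Hbb-bt, ratios of 1.05 and 1.06. Hbb-bt has a single transcript, a coding one, so this measure could lower Hbb-bs but not Hbb-bt. These comparisons were added after the data were seen. What RNA the reads of the retained-intron transcripts came from was not tested.

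**Figure D2:**
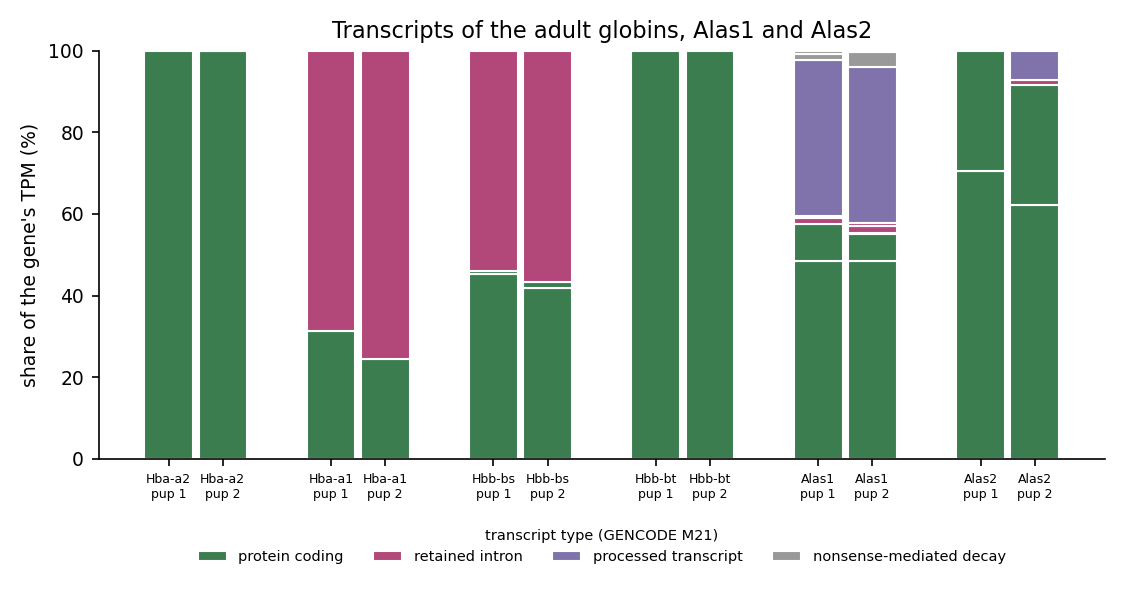
Share of each gene's TPM held by each of its transcripts, one bar per pup, coloured by transcript type in GENCODE M21, with white lines between transcripts. The retained-intron share is large in Hba-a1 and Hbb-bs, 0.02% or less in Hba-a2 and absent from Hbb-bt, which has a single transcript, and Alas1 shows a large share in a processed transcript.

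The embryonic globins were near the limit of detection. Hba-x, the embryonic alpha-type chain zeta (chr11:32276400-32278116), had 6 expected counts in each pup, or 0.36 and 0.29 TPM in pups 1 and 2. Hbb-y, an embryonic beta-type chain (chr7:103851749-103853216), had 7 counts in pup 1 and 6 in pup 2, or 0.42 and 0.29 TPM. Hbb-bh1, the other embryonic beta-type chain (chr7:103841637-103843164), had 0 counts in pup 1 and 1 in pup 2. At a count of 0 the true value may reach 3 counts, which is 0.0721 CPM (counts scaled to a library total of 1000000) in pup 1.

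As shares of their type, these are small fractions of the adult signal. By rounded expected counts, Hba-x made up 0.0152% of alpha-type globin in pup 1 (6 of 39414, exact binomial 95% interval 0.00559% to 0.0331%) and 0.0132% in pup 2 (6 of 45613, 0.00483% to 0.0286%). Hbb-y and Hbb-bh1 together made up 0.0248% of beta-type globin in pup 1 (7 of 28264, 0.00996% to 0.0510%) and 0.0201% in pup 2 (7 of 34757, 0.00810% to 0.0415%). The intervals of the pups overlap for both types. They cover counting error only.

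The promoters of 2 genes are printed to show the sequence just before each start site. They are Hba-a2, the most abundant globin, and Hbb-y, the embryonic globin with most counts. Each line is the 120 bases before the RefSeq start on the gene's strand (GRCm38.p6), with matches to the searched motifs in capitals. The first motif was CCAAT. The second was a TATA-type box, the letters TATAA with A or G behind them. The third was a GATA site, with A or T in front of GATA and A or G behind it. The last was the CACC-type box CCNCNCCC. Each was searched on both strands, and overlaps between motifs were allowed.
Hba-a2, chr11:32296372-32296491, plus strand: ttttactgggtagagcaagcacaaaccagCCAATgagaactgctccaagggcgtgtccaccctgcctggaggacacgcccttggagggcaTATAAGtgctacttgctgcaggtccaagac
Hbb-y, chr7:103853208-103853327, minus strand: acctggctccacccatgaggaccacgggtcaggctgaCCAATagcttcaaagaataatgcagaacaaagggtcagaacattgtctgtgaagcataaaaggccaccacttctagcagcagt
Hba-a2 had a CCAAT at position -91 and a TATAAG at -30 relative to the start, and Hbb-y had a CCAAT at -83. Each also had a GATA site above the bases shown, at -186 in Hba-a2 and -162 in Hbb-y. Over the 300-base windows (250 before and 50 after the start) of 32851 RefSeq promoters, 37.4% held CCAAT, 18.8% a TATA-type box, 29.8% a GATA site and 49.5% a CACC-type box, so such matches are common. RefSeq promoters were examined here for 8 of the 10 members. The 120 bases before the start of Hba-a1 and Hba-a2 matched at 117 positions of a 123-position alignment, and those of Hbb-bs and Hbb-bt at 88 of 121. The RefSeq starts differ from the GENCODE M21 gene ends. All 120 bases lie inside the M21 gene for Hba-a1 and Hbb-bs, against 3 for Hba-a2 and 73 for Hbb-bt.

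Among the heme synthesis members, Alas1 led and Alas2 was lowest. Alas1 (chr9:106233455-106248654) stood at 78.7 TPM in pup 1 and 70.2 TPM in pup 2. Alas2 (chrX:150547375-150570638) stood at 10.5 and 10.05 TPM, from 589 and 650 expected counts. Alas1 exceeded Alas2 by 7.52-fold in pup 1 and 6.99-fold in pup 2, and Alas2 held 11.7% and 12.5% of the TPM of both forms together. On the log2 scale the ratio was 2.86 ± 0.08 (SD, n = 2). It was smaller from coding transcripts alone, an alternative added after the data were seen, at 2.09 ± 0.03.

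Fech, which inserts iron into the ring to complete heme (chr18:64452914-64490251), stood at 39.8 TPM in pup 1 and 37.2 TPM in pup 2. It was above Alas2 by 3.80-fold in pup 1 and 3.71-fold in pup 2 (log2 1.91 ± 0.03). It was below Alas1, at 0.505 and 0.531 of its TPM (log2 -0.95 ± 0.05). From coding transcripts alone the log2 ratio of Fech to Alas1 was -0.19 in pup 1 and -0.06 in pup 2 (-0.12 ± 0.09). There the difference between the genes was no larger than that between the pups. The authors' annotation gave Fech a single transcript, a coding one, so this measure could lower Alas1 but not Fech. Alas1, Fech and Alas2 thus stood in that order in both pups, but the size of the step from Alas1 to Fech depended on which transcripts were counted.

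Both forms of the first enzyme overlap other genes, which limits how closely their counts can be read, since the sources used here do not say which strand was counted. Alas2 shares 311 of its 2403 exon bases with Apex2 on the opposite strand, a DNA repair gene at 10.4 TPM in pup 1 and 10.2 TPM in pup 2. Of the 100-base windows of Alas2-201, 11.0% were found in Apex2. Alas1 shares 465 of 6174 exon bases with the antisense gene 4930500F10Rik, which stood at 0.6 and 0.66 TPM in pups 1 and 2. The authors' standard deviation of the count was small for Alas2, at 2.11 counts in pup 1 and 2.45 in pup 2. For Alas1 it was 0 in both pups. These values do not show which strand was counted.

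By transcript, Alas1-201, the main coding form, held 48.4% of Alas1 TPM in each pup. The processed transcript Alas1-206, with no annotated coding sequence, held 38.3% and 38.2% in pups 1 and 2, and the coding Alas1-207 held 9.12% and 6.61%. Coding transcripts in all made up 57.5% of Alas1 TPM in pup 1 and 55.3% in pup 2. In Alas2 the coding Alas2-201 held 70.4% and 62.1%, and Alas2-202, whose annotated coding sequence is shorter, held 29.6% in both pups. The annotation used by the authors gave Fech a single transcript.

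Steps between Alas and Fech were detected as well. Of the 8 heme synthesis genes described here, 8 were at 1 TPM or more in both pups, against 33.9% of all Ensembl genes. Their median was 39.3 TPM in pup 1 and 36.7 TPM in pup 2, against medians of 16.2 and 15.4 TPM over all 14684 detected genes. In pathway order, Alad, which joins a pair of aminolevulinic acid molecules, was highest at 97.8 and 87.0 TPM in pups 1 and 2. Uros, which closes the porphyrin ring, was at 22.9 and 18.0 TPM. Alad exceeded Uros by 4.27-fold in pup 1 and 4.83-fold in pup 2.

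The later steps lay between these levels. Urod, which removes carboxyl groups from the ring, stood at 76.4 TPM in pup 1 and 72.8 TPM in pup 2. Cpox and Ppox, the oxidases that follow in the mitochondrion, stood at 34.8 and 30.1 TPM and at 38.8 and 36.2 TPM in pups 1 and 2. Alas2 was the lowest of the 8 in both pups and Uros the next. Cpox, Ppox and Fech came next and lay between 30.1 and 39.8 TPM.

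**Figure D3:**
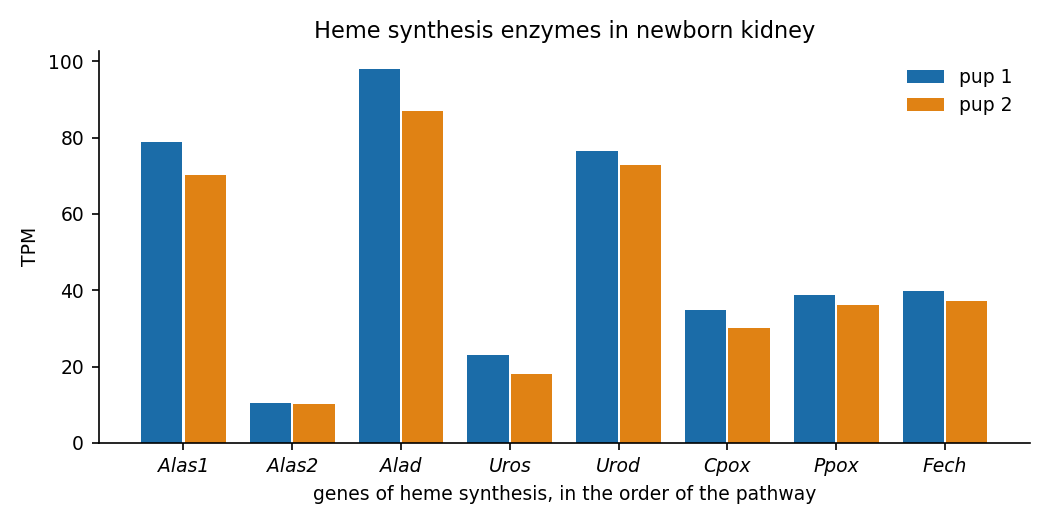
TPM of the 8 genes of heme synthesis described here in the order of the pathway, with pup 1 in blue and pup 2 in orange. Alad is highest and Alas2 lowest in both pups, and TPM is higher in pup 1 for all 8 genes.

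Genes that work beside the pathway were also widely present, with 13 of 14 detected. For this and the list counts that follow, the share detected over all Ensembl genes was 33.9%. The 4 highest were Slc25a39, a mitochondrial carrier, at 316 TPM in pup 1 and 282 TPM in pup 2, Pgrmc1, a heme-binding membrane protein, at 270 and 252 TPM, Tmem14c at 205 and 198 TPM, and Tspo, a protein of the outer mitochondrial membrane, at 128 and 132 TPM. The lowest was Tspo2, a relative of Tspo known from red cell precursors, at 0.52 and 0.91 TPM. Of 13 genes of heme breakdown and transport, 11 were detected. Abcg2, an exporter of porphyrins and other compounds, led at 119 and 103 TPM in pups 1 and 2, followed by the heme oxygenase Hmox2 at 87.2 and 81.1 TPM, the heme transporter Slc48a1 at 77.4 and 65.8 TPM and the biliverdin reductase Blvra at 68.8 and 61.0 TPM. Hpx, which encodes the heme-binding plasma protein hemopexin, was lowest at 0.54 and 0.38 TPM.

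Of the other globin genes 1 of 8 measured was detected. Cygb, cytoglobin, a globin of fibroblast-like cells, stood at 30.9 TPM in pup 1 and 28.1 TPM in pup 2. The theta globins Hbq1b and Hbq1a were at 0.76 and 0.69 TPM and at 0.31 and 0.15 TPM. Mb, the myoglobin of muscle, was at 0.51 and 0.60 TPM, and Ngb, the neuroglobin of nerve cells, at 0.20 and 0.26 TPM. The pseudogene Hba-ps4 had 1 count in pup 1 and 0 in pup 2. Hbb-bh2 and Hbb-bh3 had 0 counts in both pups, which allows up to 0.0721 and 0.0614 CPM in pups 1 and 2.

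The globin level stood far above that of other genes of red cell precursors. The 4 adult globins summed to 4589 TPM in pup 1 and 4461 TPM in pup 2, against sums of 10.3 and 9.02 TPM for 8 measured erythroid markers, a ratio of 445-fold and 495-fold. Of these 8 markers 2 were detected, a share near the 33.9% of all Ensembl genes. None was at 0, and their median was 0.19 and 0.16 TPM. Slc4a1, the anion exchanger of the red cell membrane, which the kidney's acid-secreting cells also use, stood at 6.52 and 5.89 TPM in pups 1 and 2. Epb42, a red cell membrane protein, was at 1.71 TPM in both. Klf1, a transcription factor of the beta globin genes, was at 1.46 and 0.86 TPM, Ermap, an erythroid membrane protein, at 0.24 and 0.23 TPM, and Gata1, a master factor of red cell precursors, at 0.07 and 0.06 TPM. Adult globin TPM was 438 times that of Alas2 in pup 1 and 444 times in pup 2. In tissue of mixed cells, fewer cells of a type and less RNA per cell cannot be told apart.

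Wider lists of red cell genes were mixed. Of 19 genes of the red cell membrane and its enzymes, 12 were detected, with medians of 6.52 TPM in pup 1 and 5.89 TPM in pup 2. The highest were genes with uses in many cells: the peroxiredoxin Prdx2 at 609 and 575 TPM, the carbonic anhydrase Car2 at 185 and 165 TPM, the water channel Aqp1 at 122 and 112 TPM and catalase, Cat, at 68.8 and 68.0 TPM. The lowest, Car1, a carbonic anhydrase abundant in red cells, had 0 counts in pup 1 and 4 in pup 2. Of 10 transcription factors of the lineage 5 were detected, with medians of only 1.315 TPM in pup 1 and 1.185 TPM in pup 2. Ldb1 at 66.3 and 66.8 TPM and Lmo2 at 28.1 and 35.0 TPM stood far above the rest. Myb at 2.12 and 1.72 TPM and Nfe2 at 2.29 and 1.51 TPM came next. Gata1 was lowest of these as well.

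Markers of other cells that blood or nearby tissue could bring were present at modest levels, and their part in the globin level was not tested. Of 6 platelet markers 3 were detected, with sums of 63.2 TPM in pup 1 and 66.4 TPM in pup 2, led by Pf4 at 50.6 and 53.2 TPM and Itga2b at 10.0 and 10.4 TPM. Of 10 leukocyte markers 8 were detected, with sums of 233 and 243 TPM, led by S100a8 at 69.7 and 72.6 TPM, Lyz2 at 61.1 and 60.9 TPM and C1qb at 44.9 and 55.1 TPM. All 6 hepatocyte markers were detected, with sums of 211 and 201 TPM, led by Afp at 105 and 95.2 TPM and Ttr at 69.2 and 76.2 TPM. The rest of that list was lower, with Serpina1a at 23.2 and 20.8 TPM and Apoa1 at 5.51 and 4.39 TPM. Alb was at 5.65 and 2.42 TPM, and Fgb was lowest at 2.71 and 1.95 TPM. Most of the hepatocyte sum thus came from Afp and Ttr. All 10 kidney markers were detected, with sums of 1443 and 1434 TPM and the collecting duct water channel Aqp2 highest at 547 and 638 TPM. No marker of these 4 lists was at 0 in either pup.

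**Figure D4:**
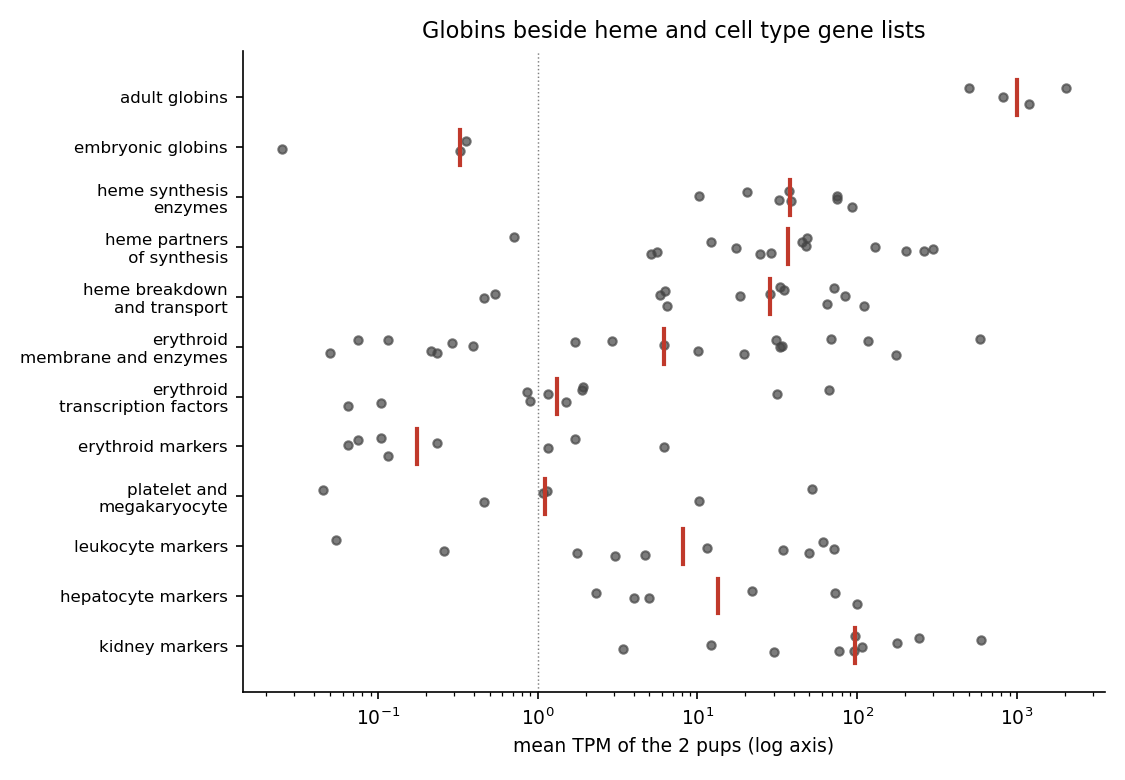
Mean TPM of the 2 pups on a log axis for each gene (points, with random vertical scatter) of 12 gene lists, with the list median as a red bar and 1 TPM as a dotted line. The adult globins lie between 502 and 2018 TPM, while the erythroid markers have a median of 0.175 TPM.

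Between the pups the members differed little. Of the 7 members with at least 50 expected counts in a pup, 0 were past 2-fold in the log2 ratio of TMM-scaled CPM + 0.1, pup 1 over pup 2, against 0.587% of the 15150 genes examined, a share near the background. TMM is a scaling that sets the bulk of genes equal between libraries. Hbb-bs had a ratio of -0.12 (exact 95% counting interval -0.14 to -0.09) and Alas1 one of 0.11 (0.05 to 0.17), and these were the members whose counting interval did not hold 0. The other 5 lay between -0.04 for Hbb-bt and 0.06 for Alas2. In TPM the largest absolute log2 difference among the 7 was 0.17, for Alas1. The 95th percentile of that difference was 0.34 among all genes at 10 to 100 TPM and 0.26 among those above 1000 TPM.

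The direction between the pups depended on the scale. TPM was higher in pup 1 for 6 of these 7 members and for 8 of the 8 heme synthesis genes, against 68.5% of all 15150 genes. TMM-scaled CPM was higher in pup 1 for 3 of the 7 members and 6 of the 8 heme synthesis genes, against 48.4% of all genes. Uros was the heme synthesis gene furthest from 0 on that scale, at 0.16, and was picked out after its value was seen. Summed adult alpha globin was 948 CPM in pup 1 and 934 CPM in pup 2, and summed adult beta globin 680 and 712 CPM, without TMM. Among the hepatocyte markers, Alb differed more, with 5.65 TPM in pup 1 and 2.42 TPM in pup 2 and a log2 ratio of 1.11 on the TMM scale. It was also picked out after its values were seen.

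**Figure D5:**
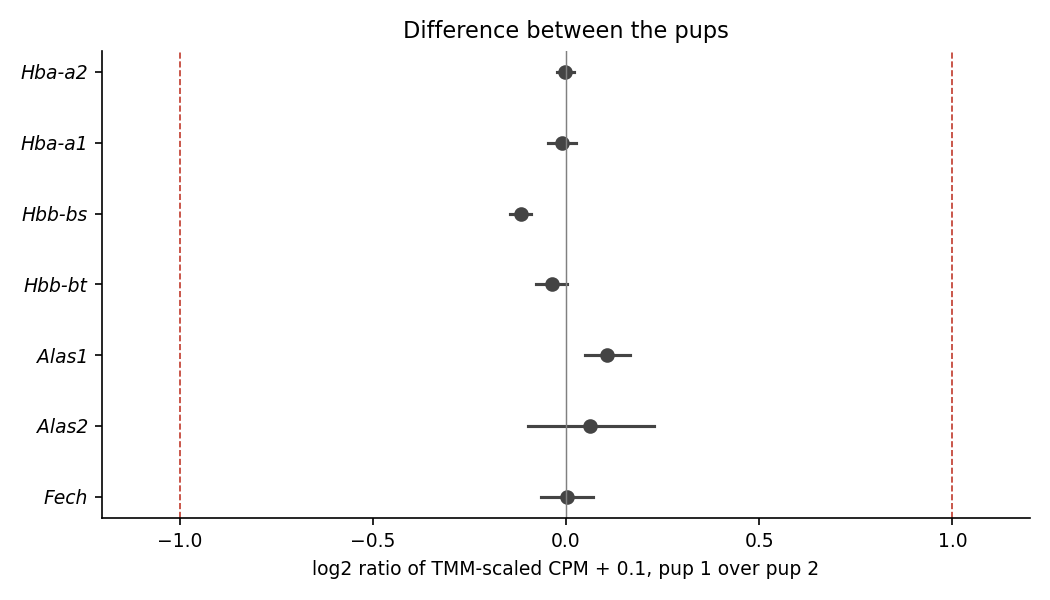
Log2 ratio of TMM-scaled CPM + 0.1, pup 1 over pup 2, for the 7 members with at least 50 expected counts in a pup (points), with the exact 95% counting interval (lines) and the 2-fold limits (dashed). All 7 lie between -0.12 and 0.11.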

How the data were processed

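The members and gene lists were chosen with earlier results of these data known. Kidney RNA of 2 pups was measured by total RNA-seq. Per the file headers, the authors deposited, for genes and transcripts, expected counts (estimated, not normalized), TPM, FPKM (not used) and posterior means, standard deviations and bounds, and for transcripts the percent of a gene's TPM. The deposited text names mm10 and GENCODE M4; no aligner, counter or strand is given in the sources used here. Symbols were matched by identifier without version; 2 of the listed symbols, Ahsp and Hba-ps3, had no row matched and were not analysed here, and Fdx2 was read under its older symbol. Coordinates and transcript types are those of GENCODE M21 on GRCm38, whose models differ from M4 for some transcripts, Hbb-bs-202 (344 nt against 549 nt) among them. Promoters are from RefSeq.

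With 1 group of 2 littermates there is no test and no p-value. TMM factors came from edgeR 4.0.16 (R 4.3.3) on the expected counts of all features as deposited (DESeq2 1.42.0 size factors, on rounded counts, were an alternative), and the ratio step was tested on simulated data. The genes named were all members, the other globin and heme synthesis genes, and in each other list up to 4 of highest mean TPM and the lowest; further names are marked. A few genes are not reported here and were left out of the list counts. Depth was 41584961 and 48823952 expected counts. Intervals (SciPy 1.17.1) are exact binomial at 95% on rounded counts; intervals and floors (3 counts) cover counting error only. Sequences were aligned with Biopython 1.88. Alternatives were posterior mean TPM, other scalings, filters and pseudocounts, full length, counts with no length, leaving out each pup and, added after the data were seen, coding transcripts alone.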

Additional observations from a re-analysis of the deposited data

How the results depend on the processing

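No paired analysis was possible because there is 1 group. The values below are means over the pups, and log2 ratios where a ratio is named; no ratio changed sign under any alternative tried. Summed adult alpha TPM (2838) was 3177 when rescaled without mitochondrial genes and 7SL copies, 2644 with full length and 2247 from coding transcripts; summed adult beta TPM (1686) was 1888, 1628 and 1031, and 1659 as posterior mean. Counts with no length moved alpha over beta to 0.44, Hbb-bs over Hbb-bt to 1.10, Alas1 over Alas2 to 2.93, Fech over Alas2 to 2.52, Fech over Alas1 to -0.42 and the embryonic alpha share to 0.0142%. Coding transcripts gave 1.12 for alpha over beta, 3.15 for Hba-a2 over Hba-a1, 0.076 for Hbb-bs over Hbb-bt, 2.09 for Alas1 over Alas2, 1.97 for Fech over Alas2 and -0.12 for Fech over Alas1. Fech and Hbb-bt each have a single, coding transcript in the authors' annotation, so this alternative could not lower them. Posterior means gave embryonic shares of 0.0149% and 0.0292% and 1.86 for Fech over Alas2, which was 1.93 with full length. The genes past 2-fold between the pups (89) were 38 with a pseudocount of 1 CPM, 640 with no filter and 387 with at least 10 counts; members past it were 0 under all alternatives. Levels of the 7 detected members moved to between 0.931 and 1.12 of their value over planned measures. Coding transcripts alone, which were not planned, lowered some members far more. They gave 229 TPM for Hba-a1 (821 as deposited), 529 TPM for Hbb-bs (1185) and 56.4% of the TPM of Alas1, while Hba-a2 stayed at 2018 TPM. Depth limits the embryonic globins, at 7 counts or fewer per gene and pup.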
